A study of Mus musculus with 8 samples.

Results

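The genes described here are those of MHC class II antigen presentation: H2-Aa, H2-Ab1, H2-Eb1, H2-DMa, H2-DMb1, Cd74 and Ciita, taken by symbol from an array table of colon epithelial cells of C57BL/6J mice. A row was found for 6 of these 7 genes among 19505 named genes, and 5 of them were bright enough to be among the 13003 genes tested. Cd74 was not analysed here, and Ciita lay just under the brightness limit, so it is described without a main test. RNA was measured on 8 Affymetrix arrays in 4 groups of 2 biological replicates each: wild-type (WT) mice without treatment, WT mice given 3.5% dextran sulfate sodium (DSS) in drinking water for 2 days, SMS2 knockout mice without treatment, and SMS2 knockout mice given the same DSS. DSS is a chemical that injures the colon lining, and SMS2 (gene Sgms2) makes sphingomyelin from ceramide. The sources used here give neither how the knockout was made nor how many mice stood behind each replicate.

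MHC class II molecules carry peptides from taken-up proteins to the cell surface, where CD4+ T cells read them. Each is a pair of an alpha and a beta chain, which in the mouse are I-A (H2-Aa with H2-Ab1) and I-E (H2-Ea with H2-Eb1). The invariant chain Cd74 fills the groove during assembly, and the chaperone H2-DM, a pair of H2-DMa with a beta chain from H2-DMb1 or H2-DMb2, exchanges its remnant for peptide. The coactivator Ciita switches these genes on as a group, through factors bound to the X and Y boxes of their promoters. Dendritic cells, B cells and macrophages make class II at rest, and gut epithelial cells can make it when interferon gamma induces Ciita. C57BL/6 mice carry a defective H2-Ea and make no I-E at the surface, although H2-Eb1 is transcribed.

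The promoters are shown because the members moved together across the arrays. RefSeq's table for GRCm38.p6, with windows from 250 bases before to 50 after each gene start, held 4 of the 7 members: H2-Aa, H2-Eb1, H2-DMb1 and, with 2 windows, H2-DMa. Each window was searched on both strands for GNAAC, from the start of the X box, followed after 20 to 30 bases by TGATTGG, a Y box holding an inverted CCAAT, and these letters were chosen after the sequences were seen. The 3 members with the pair are given below as the 120 bases before the start, on the gene's strand, with both motifs in capitals. H2-Aa is at chr17:34287824-34287943 on the minus strand, H2-Eb1 at chr17:34305747-34305866 on the plus strand and H2-DMb1 at chr17:34153071-34153190 on the plus strand.
H2-Aa: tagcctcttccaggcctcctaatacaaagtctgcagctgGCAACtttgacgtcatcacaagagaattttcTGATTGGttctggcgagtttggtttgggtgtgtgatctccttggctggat
H2-Eb1: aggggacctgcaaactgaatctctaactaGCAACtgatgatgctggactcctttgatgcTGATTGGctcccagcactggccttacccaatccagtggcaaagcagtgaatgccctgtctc
H2-DMb1: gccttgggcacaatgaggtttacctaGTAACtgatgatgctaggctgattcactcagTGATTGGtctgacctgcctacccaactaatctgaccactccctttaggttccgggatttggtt

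In these 3 promoters the X motif began at -81, -91 and -94 from the gene start, with the base before the start at -1, and the spacer was 26, 25 and 26 bases. Neither H2-DMa window held the pair. Of 4 windows of other class II genes, 3 held it, and the stretch from the X to the Y motif is shown for each to compare the spacers.
H2-Oa: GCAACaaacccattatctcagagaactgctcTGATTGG
H2-Ob: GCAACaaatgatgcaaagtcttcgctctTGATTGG
H2-Eb2: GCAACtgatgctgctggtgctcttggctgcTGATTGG
H2-DMb2, the fourth of these, held TGATTGG without the pair. Among all 32851 windows of this length the pair was found in 0.323%. TGATTGG was found in 7.82% and GNAAC in 84.8%, with or without the pair. Since the letters were chosen after these promoters were seen, the shares are no test of the members. The part of the promoters in the class II values was not tested. The motifs do not overlap each other. A match describes letters in a window and does not show that a factor binds there.

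Facts of the series bear on every value below. Sgms2 read 10.76 to 11.27 on the log2 scale on the 4 WT arrays and 6.47 to 7.35 on the 4 knockout arrays, a knockout difference of -3.46 without DSS (limma, adjusted p = 0.00137) and -4.18 with DSS (adjusted p = 3.08e-05). The Y-linked genes Eif2s3y, Uty and Kdm5d were bright on all 4 DSS arrays (7.50 to 11.44) and under background on all 4 untreated arrays. DSS and whatever differs with these transcripts, such as the sex of the mice, thus cannot be told apart. Pancreatic amylase Amy2a5 read 15.17 on replicate 1 of the WT DSS group and 9.61 on replicate 1 of the knockout DSS group, against 4.59 to 5.55 on the other 6 arrays. The epithelial marker list was bright on every array, with all 11 genes above background and a mean signal of 15.45 to 15.93. Krt20, a keratin of mature surface cells, was lower with DSS in WT (-1.10, limma, adjusted p = 0.0415). In the knockout it differed by -0.78 (adjusted p = 0.302). It was the 1 call of 11 in WT, with 0 in the knockout, where 1.12% and 0.392% of all genes were called lower. Cdx2 differed by -1.13 in WT (adjusted p = 0.104) and -0.48 in the knockout. Of the 11 genes, 2 had a positive difference in WT and 6 in the knockout. Markers of macrophages, fibroblasts, vessels and smooth muscle were also detected, with values given beside the class II results. In RNA from many cells together, a difference in the number of cells of a type and a difference in RNA per cell cannot be told apart.

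The 5 tested class II genes were all higher after DSS in WT cells, by between 1.50 and 3.01 on the log2 scale. All 5 passed the test across 13003 genes, where 2.91% of genes were called higher. In the knockout 4 of these genes stood above their untreated level by between 0.66 and 1.53, H2-DMa was under background in both groups, and none of the 5 passed (0.538% of genes were called higher). Background means the 75th percentile of 5222 negative controls on an array, 6.00 to 6.24 on the log2 scale.

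**Figure D1:**
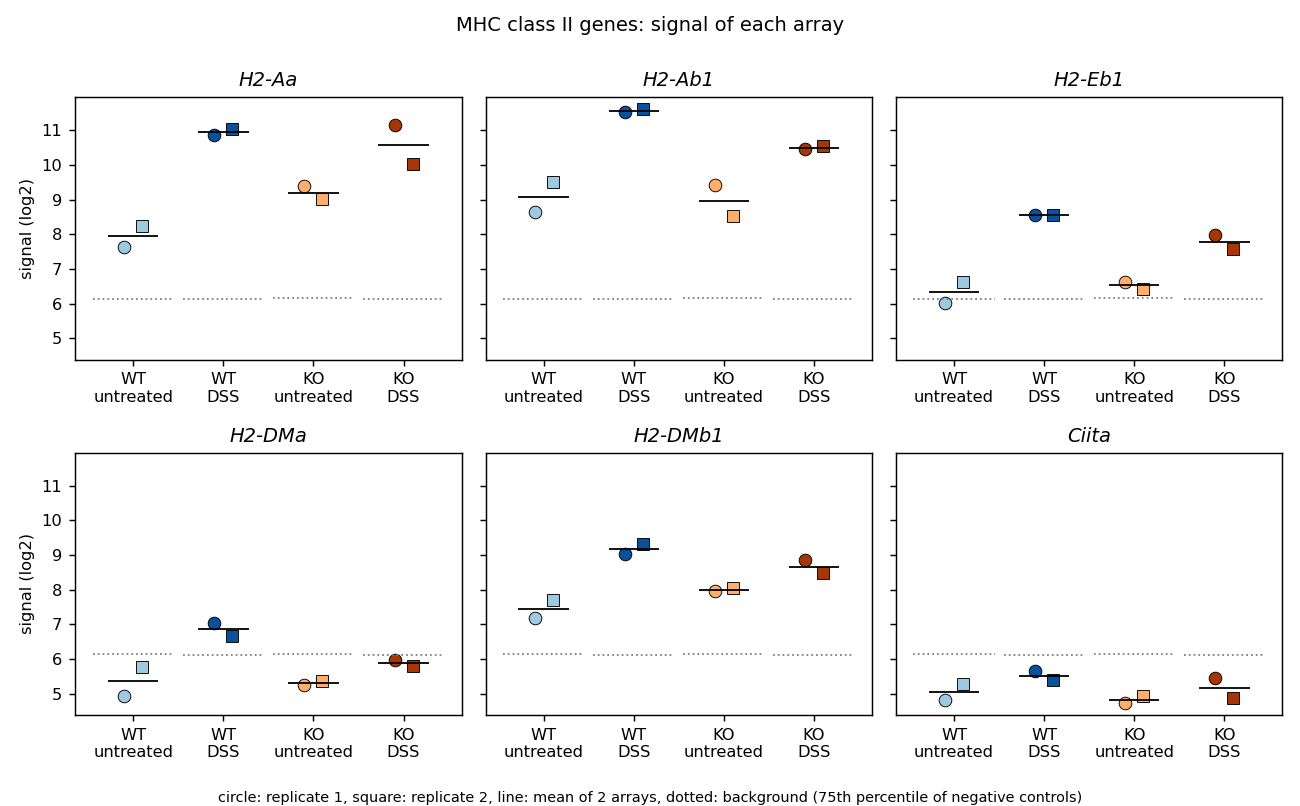
Log2 signal of the 6 class II genes with a row on each of the 8 arrays, by group. Circles are replicate 1, squares replicate 2, bars the mean of 2 arrays and dotted lines background; the WT DSS arrays of H2-Ab1, at 11.51 and 11.61, lie above its other 6 arrays, and Ciita lies under background throughout.

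The I-A alpha chain gene H2-Aa had the largest DSS difference of the 5 in WT. Its signal was 7.63 and 8.25 on the WT untreated arrays, 10.87 and 11.03 with DSS in WT, 9.38 and 9.01 in the untreated knockout, and 11.14 and 10.03 in the knockout with DSS. Every DSS array was brighter than every untreated array. Group means were 7.94 ± 0.44 (SD, n = 2), 10.95 ± 0.11, 9.19 ± 0.26 and 10.58 ± 0.79 in that order. In WT the difference was 3.01 ± 0.35 (standard error), which is 8.06-fold with a 95% interval of 4.71 to 13.8 (limma, adjusted p = 0.000579). In the knockout it was 1.39 ± 0.35 (adjusted p = 0.129), and the arrays of its DSS group were far apart (replicate 2 minus replicate 1, -1.11). Without knockout DSS replicate 2 the difference was 1.95 and passed (adjusted p = 0.0146).

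The order of the H2-Aa means was WT untreated, knockout untreated, knockout DSS and WT DSS, from low to high. The first 3 neighbours were separated on all arrays, whereas the WT DSS arrays fell within the range of the knockout DSS arrays.

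H2-Ab1, the I-A beta chain gene, is the partner of H2-Aa. It read 8.65 and 9.50 in WT without DSS, 11.51 and 11.61 in WT with DSS, 9.43 and 8.52 in the untreated knockout, and 10.46 and 10.54 in the knockout with DSS. The untreated groups overlapped, and both DSS groups lay above them with the WT arrays on top. The WT difference was 2.48 ± 0.34, or 5.59-fold with an interval of 3.34 to 9.38 (limma, adjusted p = 0.00152). The knockout difference was 1.53 ± 0.34, or 2.89-fold with an interval of 1.72 to 4.84 (adjusted p = 0.0708).

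H2-Eb1, the beta chain gene of I-E, was dim without DSS. It read 6.01 and 6.63 on the untreated WT arrays, the first of them under background, and 6.62 and 6.43 on the untreated knockout arrays. With DSS it read 8.56 and 8.54 in WT and 7.96 and 7.58 in the knockout. The untreated groups overlapped, and the knockout DSS arrays lay between them and the WT DSS arrays. In WT it rose by 2.23 ± 0.27, or 4.69-fold with an interval of 3.13 to 7.03 (limma, adjusted p = 0.000642), and the knockout difference was 1.24 ± 0.27 (adjusted p = 0.0579).

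H2-DMb1 encodes a beta chain of the peptide-exchange chaperone. Its signal was 7.20 and 7.71 in WT without DSS, 7.96 and 8.04 in the untreated knockout, 8.85 and 8.48 in the knockout with DSS and 9.04 and 9.32 in WT with DSS. These 4 groups did not overlap anywhere in that order. The DSS difference was 1.72 ± 0.26 in WT, 3.30-fold with an interval of 2.23 to 4.89 (limma, adjusted p = 0.00290), and 0.66 ± 0.26 in the knockout (adjusted p = 0.411).

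H2-DMa encodes the alpha chain of the same chaperone and was above background on 2 of 8 arrays, both WT with DSS. The readings were 4.93 and 5.78 in WT without DSS, 7.05 and 6.67 in WT with DSS, 5.26 and 5.38 in the untreated knockout, and 5.98 and 5.79 in the knockout with DSS. The WT difference of 1.50 ± 0.29 passed (limma, adjusted p = 0.0143), and since the untreated arrays lay under background it is given as at least 1.65-fold higher, from the DSS mean against the background of the untreated arrays. It did not pass without WT untreated replicate 1 (1.07, adjusted p = 0.166) or without WT DSS replicate 1 (1.31, adjusted p = 0.0882). The knockout difference of 0.57 ± 0.29 (adjusted p = 0.619) lay under background in both groups, so no fold is given.

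Ciita, the class II coactivator, was under background on all 8 arrays. It read 4.81 and 5.27 in WT without DSS, 5.65 and 5.40 in WT with DSS, 4.73 and 4.92 in the untreated knockout, and 5.46 and 4.89 in the knockout with DSS. Its mean of 5.14 fell just below the limit of 5.15 for testing. With every named gene tested, its DSS difference was 0.48 in WT (limma, adjusted p = 0.508) and 0.35 in the knockout (adjusted p = 0.830), both between signals at background.

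The arrays of the DSS groups lay above those of the untreated groups without overlap for 5 of 5 tested members in WT and for 5 of 5 in the knockout, where H2-DMa was under background and so 4 had detected signal, against 20.3% and 16.8% of all genes tested. The median difference of the 5 was 2.23 in WT and 1.24 in the knockout, against -0.05 and -0.04 over all genes. In the knockout 4 of 5 had an unadjusted p under 0.05 and were higher, all but H2-DMa, against 4.57% of all genes. Averaged over both genotypes, 5 of 5 were called higher with DSS, against 3.47% of all genes. The differences were 2.20 for H2-Aa (limma, adjusted p = 0.000317), 2.01 for H2-Ab1 (adjusted p = 0.000467), 1.74 for H2-Eb1 (adjusted p = 0.000237), 1.19 for H2-DMb1 (adjusted p = 0.00235) and 1.03 for H2-DMa (adjusted p = 0.0130). The averaged call of H2-DMa was lost without WT untreated replicate 1 (adjusted p = 0.0588) and without knockout untreated replicate 1 (adjusted p = 0.0529). The members are not independent of each other: over the 8 arrays, which share the groups, the 10 pairs of tested members had Pearson correlations of 0.785 to 0.973.

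**Figure D2:**
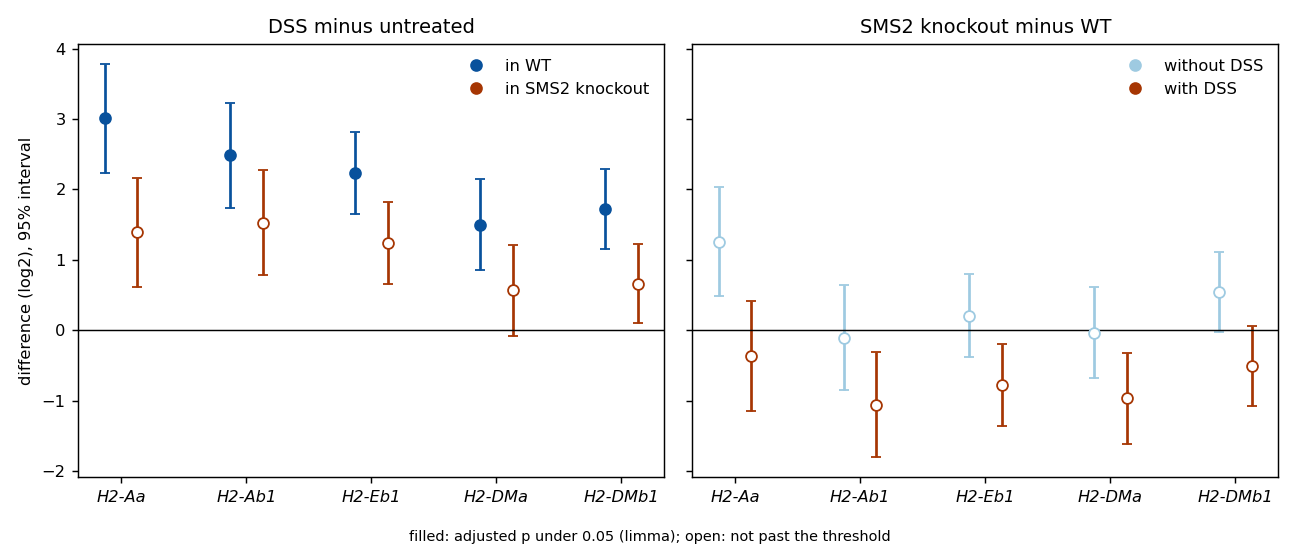
Log2 differences of the 5 tested class II genes with 95% intervals, for DSS minus untreated in each genotype (left) and for SMS2 knockout minus WT without and with DSS (right). Filled points passed an adjusted p of 0.05; the 5 filled points are the DSS differences in WT, from 1.50 to 3.01.

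Without DSS none of the 5 genes passed the test between knockout and WT (0.392% of all genes were called in either direction). H2-Aa stood at 1.25 ± 0.35 above WT, with both knockout arrays above both WT arrays, an unadjusted p under 0.05 and an adjusted p = 0.239 by limma. It was the 1 gene of 5 that was higher at that unadjusted level, against 4.16% of all genes. H2-DMb1 was also separated upward, by 0.55 ± 0.26 (adjusted p = 0.809), so that 2 of 5 were, against 17.5% of all genes. H2-Ab1 (-0.11), H2-Eb1 (0.21) and H2-DMa (-0.04) overlapped between genotypes. H2-Aa passed under 3 of the alternative settings, with adjusted p = 0.0335 when only the untreated arrays were fitted.

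Under DSS the 5 genes stood lower in the knockout than in WT, with differences of -1.06 to -0.37, and again none passed (0.354% of all genes were called in either direction). The differences were -1.06 ± 0.34 for H2-Ab1 (limma, adjusted p = 0.319), -0.97 ± 0.29 for H2-DMa (adjusted p = 0.295; under background in the knockout, so at least 1.65-fold lower there), -0.78 ± 0.27 for H2-Eb1 (adjusted p = 0.367), -0.51 ± 0.26 for H2-DMb1 (adjusted p = 0.527) and -0.37 ± 0.35 for H2-Aa (adjusted p = 0.756). The knockout arrays lay below the WT arrays without overlap for 4 of 5, all but H2-Aa, against 18.8% of all genes. At an unadjusted p under 0.05, H2-Ab1, H2-DMa and H2-Eb1 were lower, 3 of 5 against 6.18% of all genes. For H2-Ab1 the 95% interval ran from -1.81 to -0.32.

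The difference between the DSS changes of the 2 genotypes was tested as an interaction. It was negative for 5 of 5, meaning a smaller DSS change in the knockout, and passed for none, while 0.0769% of all genes passed in either direction. H2-Aa had -1.62 ± 0.50 (95% interval -2.72 to -0.53, limma, adjusted p = 0.521), H2-DMb1 -1.06 ± 0.37 (adjusted p = 0.690), H2-Eb1 -0.99 ± 0.38 (adjusted p = 0.771), H2-Ab1 -0.95 ± 0.48 (adjusted p = 0.935) and H2-DMa -0.93 ± 0.42 (adjusted p = 0.905). At an unadjusted p under 0.05 the interaction was negative in 4 of 5, all but H2-Ab1, against 3.57% of all genes. The call in WT and its absence in the knockout are therefore not shown to differ.

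Most other genes of the class II route did not pass. Of 15 with a row, 9 were tested. With DSS 1 of 9 was called higher in WT and 0 of 9 in the knockout, where 2.91% and 0.538% of all genes were. The medians were 0.30 and -0.01. In the knockout 1 of 9 had an unadjusted p under 0.05 by limma, against 9.52% of all genes. The called gene was H2-DMb2, which encodes the other H2-DM beta chain and is nearly identical to H2-DMb1, so the array may not separate them. H2-DMb2 read 4.92 and 4.82 in WT without DSS, 6.31 and 6.69 in WT with DSS, 6.08 and 5.52 in the untreated knockout, and 5.78 and 5.85 in the knockout with DSS. Above background on the 2 WT DSS arrays alone, it was at least 1.29-fold higher there (a fitted difference of 1.63, limma, adjusted p = 0.00404). The proteases that cut antigen and invariant chain did not pass, such as Ctss (0.43 in WT, -0.08 in the knockout) and Lgmn (0.97 and 0.36), which are named here after their values were seen. The costimulators Cd80, Cd86 and Cd40 were under background on all 8 arrays.

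The 10 measured genes of the class II promoter complex included the X box factor Rfx5 and the Y box factor Nfya. By limma 0 of 10 were called with DSS in WT and 0 in the knockout. Over all genes 4.04% and 0.931% were called in either direction. The medians of the 10 were 0.07 in WT and -0.21 in the knockout. Rfx5 differed by 0.11 in WT and 0.05 in the knockout, again a gene named after its values were seen. At an unadjusted p under 0.05, 0 of these 10 passed in WT and 0 in the knockout, against 15.4% and 9.52% of all genes.

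Of 23 tested genes of the interferon gamma axis, 5 were called higher with DSS in WT and 0 in the knockout, with medians of 0.26 and -0.06. Over all genes 2.91% and 0.538% were called higher. In the knockout 2 of 23 had an unadjusted p under 0.05 by limma, against 9.52% of all genes. The 5 called in WT were the interferon-induced GTPases Gbp2 (2.08, limma, adjusted p = 0.000350), Gbp7 (1.45, adjusted p = 0.0115), Gbp4 (1.14, adjusted p = 0.0237) and Gbp3 (1.44, adjusted p = 0.0299), and the cytokine Il18 (1.34, adjusted p = 0.00815). Differences in WT were positive for 16 of 23. Igtp (-0.0005), Irgm1 (-0.15), Irgm2 (0.16) and Irf1 (-0.01), named after their values were seen, were not called there. Gbp2 read 7.05 and 7.15 in WT without DSS, 9.03 and 9.32 in WT with DSS, 7.48 and 7.49 in the untreated knockout, and 7.72 and 7.45 in the knockout with DSS. It was the 1 gene of this list that passed between genotypes under DSS, with a knockout difference of -1.59 (95% interval -2.09 to -1.09, adjusted p = 0.0130). At an unadjusted p under 0.05 there were 6 of 23 in that comparison, against 10.2% of all genes. There 1 of 23 differences was positive and the median was -0.38, against -0.02 over all genes. The interaction by limma was called for 0 of 23, against 0.0769% of all genes. As none passed, the DSS calls in WT are not shown to differ from the knockout. At an unadjusted p under 0.05 the interaction had 4 of 23, against 5.45% of all genes. Ifng itself was above background on 1 of 8 arrays, and the receptor genes Ifngr1 and Ifngr2 differed with DSS by -0.03 and -0.07 in WT, with adjusted p = 0.971 and 0.946.

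**Figure D3:**
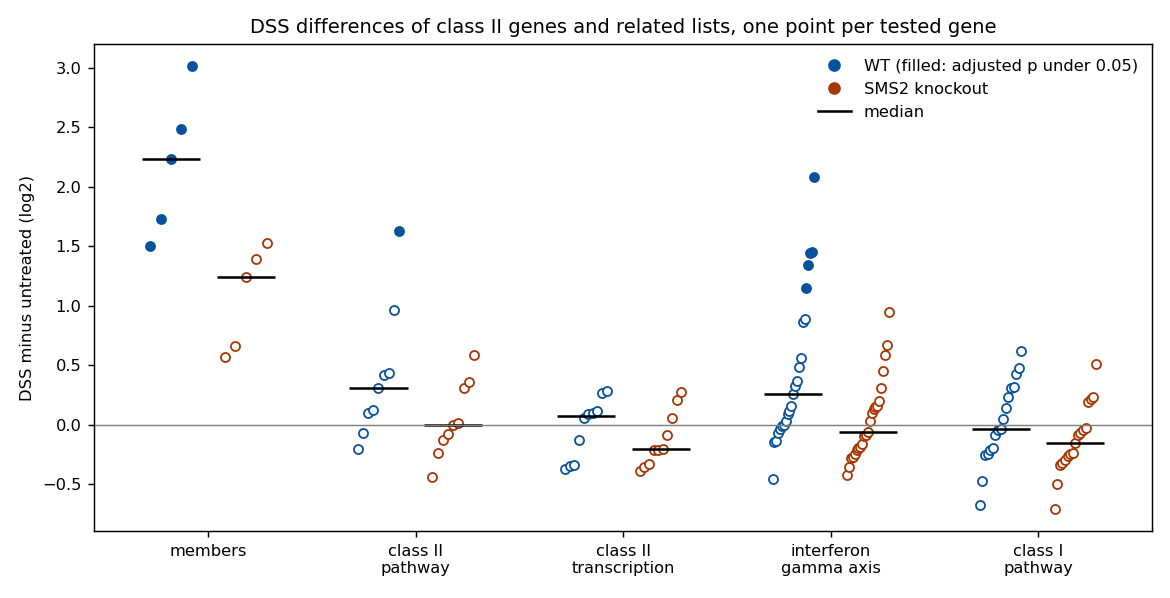
DSS minus untreated log2 difference of every tested gene among the class II members, the other class II pathway genes, the class II transcription genes, the interferon gamma axis and the class I pathway, in WT (blue) and SMS2 knockout (orange). Filled points passed an adjusted p of 0.05 and bars are medians; the member medians are 2.23 and 1.24, and those of the other lists lie between -0.21 and 0.30.

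Macrophage markers rose with DSS in both genotypes, whereas those of dendritic cells did not pass. Of 11 tested macrophage and monocyte genes, 6 rose in WT and 5 in the knockout, with medians of 1.98 and 1.95. Over all genes 2.91% and 0.538% were called higher. Among the macrophage genes that rose were the lysozyme gene Lyz2 (3.46 and 2.11), the Fc receptor gene Fcgr3 (2.69 and 1.95) and Ly6c2 (2.42 and 2.03). The complement gene C1qc, under background on all untreated arrays, also rose (at least 1.72-fold and 3.04-fold higher). The mean signal of the 13 measured macrophage genes was 6.41 to 6.63 in WT without DSS, 8.03 to 8.42 in WT with DSS, 6.97 to 7.26 in the untreated knockout and 8.24 to 8.77 in the knockout with DSS. Adgre1, a macrophage surface receptor, was under background on all arrays. Without DSS, Ly6c2 was higher in the knockout than in WT by 1.70 (limma, adjusted p = 0.0292). With each gene centred on its mean over the 8 arrays, the class II mean minus the macrophage mean was -0.17 to 0.31 on the untreated WT arrays, 0.37 to 0.73 in WT with DSS, -0.17 to -0.14 in the untreated knockout and -0.54 to -0.40 in the knockout with DSS. Minus the pan leukocyte mean it was -0.69 to -0.12, 0.65 to 0.96, -0.50 to -0.45 and 0.07 to 0.08 in the same order. The WT DSS arrays were thus above all untreated arrays by either of these 2 lists, while the knockout DSS arrays were below them against the macrophage list and above them against the pan leukocyte list. Other lists gave another order. Minus the fibroblast mean the WT DSS arrays (-0.32 to 0.37) lay below the untreated WT arrays (0.66 to 1.02). Minus the endothelial mean these groups overlapped (0.43 to 0.74 and -0.14 to 0.70). The part of these cells in the class II values was not tested.

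**Figure D4:**
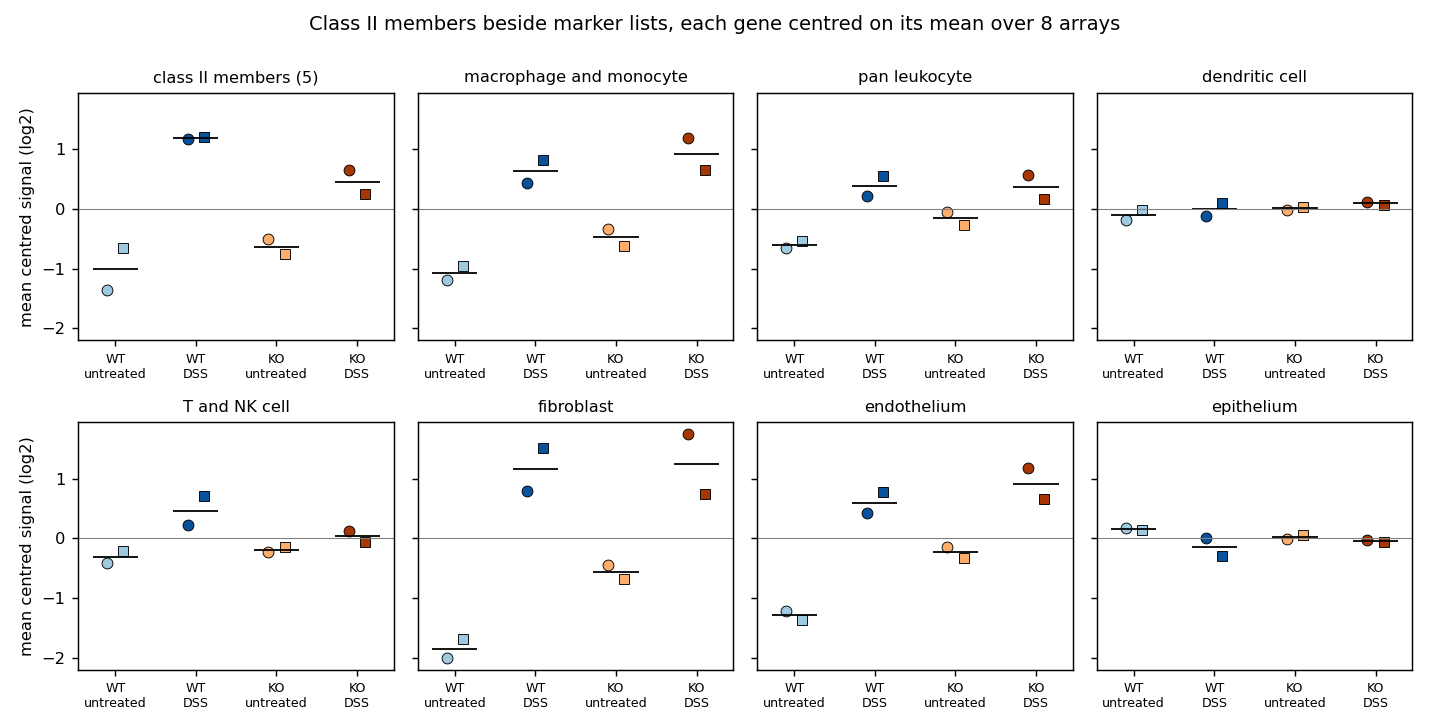
Mean log2 signal of the 5 tested class II genes and of 7 marker lists on each array, each gene centred on its mean over the 8 arrays. Circles are replicate 1, squares replicate 2 and bars the mean of 2 arrays; the class II mean of the WT DSS arrays is 1.17 and 1.20 and that of the knockout DSS arrays 0.65 and 0.25, while the macrophage mean is 0.44 to 0.83 and 0.65 to 1.18.

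Dendritic cell markers were faint, with 7 of 11 genes under background on all arrays, among them Itgax, Flt3, Zbtb46, Xcr1 and Clec9a. Their mean signal was 5.47 to 5.64 in WT without DSS and 5.54 to 5.75 in WT with DSS. In the knockout it was 5.63 to 5.69 without DSS and 5.73 to 5.78 with DSS. By limma 0 of 5 tested passed in either genotype, also at an unadjusted p under 0.05. Over all genes 4.04% in WT and 0.931% in the knockout were called, and 15.4% and 9.52% had that unadjusted p. Of 10 measured B and plasma cell genes 7 were under background throughout, including Ms4a1, Cd79a, Pax5 and the plasma cell gene Mzb1. Of the 3 tested, the plasma cell gene Jchain was called higher in both genotypes (2.75 in WT, 2.81 in the knockout). Sdc1 (0.13 and -0.12) and Xbp1 (0.19 and 0.07) were not called. Of 6 tested pan leukocyte genes 3 rose in WT, Laptm5 (2.40), Ptprc (1.34) and Lcp1 (1.16), where 2.91% of all genes were called higher. In the knockout 0 were called, and 4 of 6 had an unadjusted p under 0.05 by limma, against 9.52% of all genes. The mean of the 7 measured pan leukocyte genes was 6.65 to 6.77 in WT without DSS, 7.52 to 7.86 in WT with DSS, 7.04 to 7.25 in the untreated knockout and 7.48 to 7.88 in the knockout with DSS. The cytotoxic lymphocyte genes Gzma (2.77, at least 3.86-fold) and Gzmb (1.87) rose in WT, 2 of 7 tested T and NK cell genes. In the knockout 0 of 7 were called, and 1 of 7 had an unadjusted p under 0.05 by limma, against 9.52% of all genes. By limma the interaction was called for 0 of 6 pan leukocyte and 0 of 7 T and NK genes, against 0.0769% over all genes. At an unadjusted p under 0.05 there were 2 of 6 and 3 of 7, against 5.45% of all genes. The medians of this difference were -0.19 and -0.59, against -0.01 over all genes. As none passed, a call in WT alone is not shown to differ between genotypes.

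Fibroblast and vessel markers also rose with DSS. Of 7 fibroblast genes 5 rose in WT and 3 in the knockout, with Dcn at 4.65 and 1.95. Of 8 endothelial genes 6 and 3 rose, with Plvap at 2.48 and 1.14. Over all genes 2.91% and 0.538% were called higher in WT and in the knockout. The interaction by limma was called for 0 genes of either list, against 0.0769% of all genes. At an unadjusted p under 0.05 there were 4 of 7 fibroblast and 3 of 8 endothelial genes, against 5.45% of all genes. The medians of this difference were -1.40 and -0.76, against -0.01 over all genes. The fibroblast mean was 7.62 to 7.96 without DSS in WT, 10.44 to 11.16 in WT with DSS, 8.96 to 9.19 in the untreated knockout and 10.38 to 11.39 in the knockout with DSS. The endothelial mean was 6.26 to 6.41, 8.05 to 8.39, 7.30 to 7.49 and 8.28 to 8.80 in the same order. The means of both lists were higher on the untreated knockout arrays than on the untreated WT arrays. So were H2-Aa and H2-DMb1, whereas H2-Ab1, H2-Eb1 and H2-DMa had arrays that overlapped. By limma 1 of 7 fibroblast and 1 of 8 endothelial genes were called higher there, against 0.338% of all genes. At an unadjusted p under 0.05 there were 5 of 7 and 6 of 8, against 6.32% of all genes. With DSS 0 genes of either list were called between genotypes, against 0.354% of all genes. The mean of 7 smooth muscle genes was 11.02 to 12.06 in WT without DSS, 12.04 to 12.55 in WT with DSS, 13.33 to 13.60 in the untreated knockout and 12.44 to 14.55 in the knockout with DSS. None of these 7 genes passed between genotypes by limma, where 0.392% of all genes did without DSS and 0.354% with DSS. Without DSS 7 of 7 had an unadjusted p under 0.05 (median 1.91), against 6.32% of all genes. With DSS 3 of 7 did (median 1.32), against 10.2% of all genes. All of these were higher in the knockout. The part of these cells in the class II values was not tested.

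The genes whose signal followed the class II mean most closely over the 8 arrays were Bmp5 (Pearson r = 0.988), Apold1 (0.974), Adgrd1 (0.972), Cd55b (0.971), Gbp7 (0.970), Cd55 (0.969), Plau (0.969), Gask1b (0.964), Cilp (0.962) and Efemp1 (0.962). Of 12523 genes compared, 124 had r over 0.9, and the arrays share the groups, so these values describe a likeness of pattern and carry no test. Bmp5, a bone morphogenetic protein, had group means of 7.86 in WT without DSS, 11.09 in WT with DSS, 8.57 in the untreated knockout and 9.96 in the knockout with DSS. Its DSS differences were 3.22 ± 0.35 in WT (limma, adjusted p = 0.000347) and 1.39 ± 0.35 in the knockout (adjusted p = 0.129).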

How the data were processed

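The authors' deposited table holds log2 signals of 8 arrays, made with Affymetrix Expression Console, per the submitters' processing notes; the background correction, normalization and genome build are not stated by the sources used here. Values were used as deposited. Of 28846 rows, 6640 control rows were left out, and 19572 rows had 1 gene symbol, giving 19505 genes (the row of highest mean per gene). The lowest 33.3% of genes by mean, below 5.15, were left out. Fitting used limma 3.58.1 under R 4.3.3, with the 4 group means and all 8 arrays (4 residual degrees of freedom, prior 7.27), two-sided, with Benjamini-Hochberg adjustment over 13003 genes and a threshold of 0.05. Adjusted p-values and SDs measure the spread of these samples alone, and 2 arrays per group limit the precision. No exact permutation test is given, since 0.333 is the smallest p it can reach with 2 against 2. The fit was also run on simulated data with independent normal noise. That setting lacks the correlation between members seen here, so nothing about the members is drawn from it.

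The members and gene lists were chosen with earlier results of these data known. The text names all members, up to 4 genes of smallest p per list and comparison, up to 3 defining markers per list of other cell types, and the 10 genes most alike to the mean of the tested members; a few other genes were named after their values were seen. Cd74, which that mean was also to hold, was not analysed here. Some other listed genes were not analysed here. The neutrophil list had 1 tested gene, and smooth muscle and exocrine pancreas had 7 each. By limma these had 0 calls for DSS in either genotype, against 4.04% (WT) and 0.931% (knockout) of all genes. At an unadjusted p under 0.05 the numbers in WT were 0, 1 and 5, and in the knockout 0, 0 and 0, against 15.4% and 9.52% of all genes. Alternatives covered filters, rows per gene, scaling, the variance model, array weights, the arrays fitted, a replicate block and leaving out each array.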

Additional observations from a re-analysis of the deposited data

Results flagged for a closer look

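In H2-DMb1 every array of the knockout lay on one side of WT without DSS and on the other side with DSS. Both untreated knockout arrays (7.96 and 8.04) were above both untreated WT arrays (7.20 and 7.71), and both knockout DSS arrays (8.85 and 8.48) were below both WT DSS arrays (9.04 and 9.32). The difference between the DSS changes was -1.06 (95% interval -1.86 to -0.26), and it did not pass the test (limma, adjusted p = 0.690). Neither genotype difference passed on its own (0.55, adjusted p = 0.809 without DSS; -0.51, adjusted p = 0.527 with DSS). The fitted differences of H2-Aa (1.25 and -0.37) and H2-Eb1 (0.21 and -0.78) also changed sign, with arrays that overlapped in 1 of the treatments.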

How the results depend on the processing

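The calls for DSS in WT and for DSS averaged over genotypes kept 4 to 5 members in the fits that left out 1 array each and in the other settings (4 where the stricter filter dropped H2-DMa). For DSS in the knockout, without 1 array the count ran from 0 to 2; the 2 calls, H2-Aa and H2-Eb1, appeared without knockout DSS replicate 2. With trend and robust moderation the count was 1 (H2-Ab1, adjusted p = 0.0432). For the knockout against WT without DSS, H2-Aa was the 1 call with array weights (adjusted p = 0.0410), with only the arrays of the groups compared (0.0335) and, chosen after seeing the data, with both DSS arrays holding pancreatic transcripts left out (0.0345); without 1 array the count stayed at 0. No member passed for the genotypes under DSS or for the interaction in any fit. For these members, leaving out 1 array turned the sign of uncalled differences. Without DSS, knockout minus WT became 0.32 and 0.35 for H2-Ab1 (without WT or knockout untreated replicate 2, range -0.56 to 0.35), 0.39 and 0.02 for H2-DMa (without WT untreated replicate 2 or knockout untreated replicate 1, range -0.46 to 0.39) and -0.11 for H2-Eb1 (without WT untreated replicate 1, range -0.11 to 0.52). With DSS, H2-Aa became 0.19 without knockout DSS replicate 2 (range -0.92 to 0.19). The Ciita interaction became 0.10 and 0.15 (without WT untreated replicate 1 or knockout DSS replicate 2, range -0.23 to 0.15). The cause was not tested.

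Counts over all genes moved more. DSS in WT called 525 genes (216 to 713 without 1 array, 976 without both pancreatic arrays), DSS in the knockout 121 (18 to 294; 74 with quantile normalization and 14 with only its own arrays), the knockout without DSS 51 (2 to 132; 28 with quantile normalization, 241 with array weights, 252 with only its own arrays or without the pancreatic arrays), the knockout with DSS 46 (24 to 212; 70 with trend and robust moderation, 21 with array weights), and the interaction 10 (5 to 27; 36 without the pancreatic arrays). DSS averaged called 718 (400 to 1049 without 1 array).

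The labels give the same replicate numbers in each group without saying that they pair samples. Correlations of replicate deviations between groups ran from -0.246 to 0.276, which cannot decide whether equal numbers share a day or a preparation. Amy2a5 was bright on replicate 1 of both DSS groups (15.17 in WT, 9.61 in the knockout). With the replicate number as a block the member counts were 5 for DSS in WT, 0 in the knockout and 5 averaged, H2-DMa in WT had an adjusted p = 0.0204, and DSS in WT called 474 genes. No member's call changed with the block. Signals under background limit what can be said of H2-DMa and Ciita.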

Other observations

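MHC class I presentation shows peptides from inside the cell to CD8+ T cells. Of its 17 tested genes, 0 were called with DSS in either genotype by limma, and 0 had an unadjusted p under 0.05. Over all genes 4.04% in WT and 0.931% in the knockout were called, and 15.4% and 9.52% had that unadjusted p. The median difference of the 17 was -0.03 in WT and -0.15 in the knockout, against -0.05 and -0.04 over all genes. B2m, the light chain, differed by -0.03 in WT and -0.34 in the knockout, and the peptide transporter gene Tap1 by 0.48 and 0.22; both were named after their values were seen.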
